A study of Homo sapiens with 96 samples.

Results

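The scavenger receptor genes of macrophages were followed in 6 established human lines of acute myeloid leukaemia (AML), namely THP1, OCIAML3, MV411, MOLM13, Kasumi1 and HL60. The members were the rows of the gene count table with the symbols CD163, MSR1, CD36, MARCO, MRC1, STAB1, SCARB1 and CD68, which are 8 of 60552 gene rows. Cells of each line had been given 552A, all-trans retinoic acid (ATRA) at 100 nM, both agents (Combo) or the vehicle DMSO at 0.1%, for 2 or 4 days. The name 552A was read as GSK2879552 at 1 µM, an inhibitor of the histone demethylase LSD1 (KDM1A), since the protocol has no other arm left for it. The other agent, ATRA, activates retinoic acid receptors (RARs). KMT2A fusions are found in THP1, MV411 and MOLM13, an NPM1 mutation in OCIAML3 and RUNX1-RUNX1T1 in Kasumi1. There were 48 groups of line, treatment and day with 2 libraries each, and whether these came from separate cultures is not in the labels. Within a line, and in tests of differences between lines, p-values then measure the spread of the library pairs alone. That spread may be technical. The comparisons ask how each agent and the combination moved these receptors, and whether lines differed.

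Scavenger receptors are surface proteins that bind polyanionic and damaged ligands, modified lipoproteins and microbial surfaces, and carry them into the endocytic pathway. They are grouped by structure and not by descent. MSR1 and MARCO are class A receptors, with collagen-like stalks, that bind modified low-density lipoprotein (LDL) and bacteria. CD36 and SCARB1 belong to class B, CD36 taking up oxidised LDL and long-chain fatty acids and SCARB1 high-density lipoprotein. STAB1 (stabilin-1) clears acetylated LDL and the matrix protein SPARC, MRC1 (CD206) is the mannose receptor, and CD68 (macrosialin) lies mainly in lysosomes. CD163 binds haptoglobin-haemoglobin complexes for degradation and is a marker of the monocyte and macrophage lineage. In GRCh38 with GENCODE 29, CD163 lies at chr12:7470813-7503893 and SCARB1 at chr12:124776856-124882668, both on the minus strand, and MSR1 at chr8:16107878-16567490, also on the minus strand. On the plus strand lie CD36 at chr7:80369575-80679277, MARCO at chr2:118942166-118994660, MRC1 at chr10:17809344-17911170, STAB1 at chr3:52495338-52524495 and CD68 at chr17:7579467-7582113. Counts are summed over the exons of each gene.

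Depth and library quality bear on these genes, most of which were low. Libraries held 12.82 to 40.95 M counts (median 22.88 M), and all 8 members together had a median of 1945.5 counts per library. Within a line, libraries differed along a trend with gene GC content. An earlier reading of these data set apart 5 libraries. With 552A these were replicate 2 of THP1 and of OCIAML3 at day 2 and replicate 1 of MOLM13 at day 4, and with Combo at day 4 replicate 2 of MV411 and replicate 1 of Kasumi1. In them the log2 level in CPM (counts scaled to library depth) fell by 0.45 to 0.89 for each 10 percentage points of GC, relative to the mean of the line. MV411 DMSO day 4 replicate 2 (-0.53), OCIAML3 Combo day 4 replicate 2 (-0.50) and HL60 ATRA day 4 replicate 2 (-0.46) lay in the same range. The exons of the members held 34.1% GC (CD36) to 62.6% GC (STAB1).

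The start regions of CD163, STAB1 and MARCO are printed because these genes had clear but different responses. Each window is the 250 bases before the RefSeq gene start in GRCh38.p14, written 5′ to 3′ on the gene's strand. They lie at chr12:7503778-7504027 on the minus strand for CD163, at chr3:52495088-52495337 on the plus strand for STAB1 and at chr2:118941944-118942193 on the plus strand for MARCO. Capitals mark the motifs searched on both strands, which were GAGGAA for the myeloid factor PU.1, AATCA for the repressor GFI1, TTGCNNA for a part of the C/EBP site and AGGTCA for the RAR half-site.
CD163: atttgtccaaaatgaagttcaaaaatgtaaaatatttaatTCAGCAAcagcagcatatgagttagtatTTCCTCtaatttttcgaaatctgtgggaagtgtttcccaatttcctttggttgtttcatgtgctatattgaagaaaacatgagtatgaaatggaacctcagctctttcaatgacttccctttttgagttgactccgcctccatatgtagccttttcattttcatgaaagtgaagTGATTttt
STAB1: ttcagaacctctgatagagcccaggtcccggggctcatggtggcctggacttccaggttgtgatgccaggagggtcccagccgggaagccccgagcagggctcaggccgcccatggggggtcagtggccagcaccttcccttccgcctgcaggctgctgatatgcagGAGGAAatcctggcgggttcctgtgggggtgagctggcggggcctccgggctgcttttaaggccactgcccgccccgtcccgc
MARCO: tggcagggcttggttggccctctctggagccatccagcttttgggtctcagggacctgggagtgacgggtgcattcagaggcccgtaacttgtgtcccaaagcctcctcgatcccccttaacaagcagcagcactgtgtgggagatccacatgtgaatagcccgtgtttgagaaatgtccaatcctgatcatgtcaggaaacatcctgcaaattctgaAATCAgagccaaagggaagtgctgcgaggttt
The CD163 window held C/EBP letters, the PU.1 letters and the GFI1 letters, each 1 time on the minus strand of the gene, and the matches do not overlap. The STAB1 window held the PU.1 letters and the MARCO window the GFI1 letters, 1 time each. The RAR half-site letters were in none of the windows of CD163, STAB1, MARCO, CD36 and CD68, the 5 members with a window in the RefSeq table. Of 35116 windows of this length, 23.6% held GAGGAA, 31.4% AATCA, 29% TTGCNNA and 12.1% AGGTCA, and a match is a description only.

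In vehicle cultures these genes were far apart in level. Compared as RPKM, which are counts corrected for exon length and library depth, SCARB1 had the highest level of the 8 genes with DMSO at day 4 in 5 of the 6 lines, with 7.47 RPKM in MV411, 9.48 in MOLM13, 10.4 in Kasumi1, 12 in HL60 and 20.6 in THP1. In OCIAML3 the fatty acid receptor CD36 came first, at 19.4 ± 6.31 RPKM (SD, n = 2) against 9.89 ± 0.0953 RPKM for SCARB1, without overlap of the libraries. CD36 was second in THP1 (4.24 RPKM) and MV411 (1.74 RPKM). The macrophage-restricted receptors were low everywhere. CD163 reached 0.326 RPKM in THP1 and 0.0886 RPKM in OCIAML3, and MARCO 1.37 RPKM in THP1. Some neighbours in this order overlapped, among them MRC1 and STAB1 in Kasumi1, MSR1 and MARCO in MV411, and CD163 and MSR1 in THP1.

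**Figure D1:**
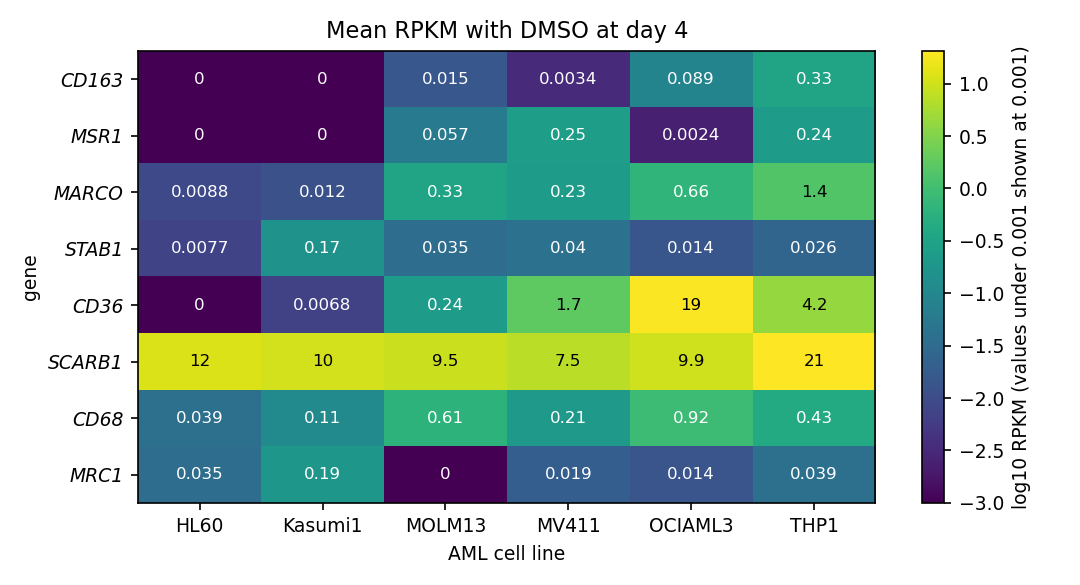
Mean RPKM (counts corrected for exon length and library depth) of the 8 receptor genes in the 6 AML lines with DMSO at day 4, as numbers in the cells and as log10 colour; each value is the mean of 2 libraries. SCARB1 is high in every line, from 7.47 RPKM in MV411 to 20.6 in THP1, and CD36 is highest in OCIAML3 at 19.4 RPKM.

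The levels with DMSO at day 4 differed between lines for all 8 members in an F test on the 48 day 4 libraries (adjusted p 3.52e-17 for CD36 to 0.00578 for SCARB1), where 78.1% of the genes tested were called (adjusted p under 0.05). The monocytic line THP1 was highest for CD163, MARCO and SCARB1, OCIAML3 for CD36 and, overlapping MOLM13, CD68, and Kasumi1 for STAB1 and MRC1. MSR1 had 1.95 ± 0.357 CPM in MV411 and 1.88 ± 0.0357 CPM in THP1, which overlapped. In HL60 and Kasumi1 MSR1 had 0 counts in all 16 libraries of each line, and in OCIAML3 it had 3 counts in all. Counts of 0 in this depth limit detection and do not show absence.

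CD163, the haemoglobin scavenger, had the largest rises of the group, with 552A. In OCIAML3 at day 4 it had 208 and 181 CPM with 552A, against 0.435 and 0.595 CPM with DMSO. In THP1 it had 50.4 and 50.7 CPM with 552A, against 2.46 and 1.33 CPM with DMSO. In MOLM13 it had 4.36 and 2.08 CPM with 552A, against 0.0535 and 0.119 CPM with DMSO. The first of these 552A libraries is among those set apart. In these lines, and in MV411 with 0.467 and 0.428 CPM against 0 and 0.0393 CPM, both 552A libraries lay above both DMSO libraries. The log2 fold change was 8.59 ± 0.56 (SE) in OCIAML3 (adjusted p = 3.92e-05), 4.65 ± 0.32 in THP1 (adjusted p = 5.01e-06) and 5.08 ± 0.87 in MOLM13 (adjusted p = 0.00836). In MV411 it was 4.15 ± 1.16, which did not pass (adjusted p = 0.0654). The MOLM13 call was lost without DMSO replicate 1 (adjusted p = 0.176) or DMSO replicate 2 (adjusted p = 0.105). HL60 and Kasumi1 were under the level filter, with 7 and 6 counts in 16 libraries. At day 4 the 2 libraries with 552A held 2 counts in HL60 and 4 counts in Kasumi1, and those with DMSO held 0 in both lines.

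Across the 6 lines, with the lines as replicates, CD163 was 94.7-fold higher with 552A than with DMSO at day 4 (log2 6.56 ± 0.73, adjusted p = 0.000219, higher in 6 of 6 lines). It was the 1 member called, where 0.393% of all genes tested were called. Leaving out each line in turn kept the call, and over 15 alternatives the log2 value ran from 5.02 to 7.10 with an adjusted p of at most 0.00391. The size of the 552A response differed between lines (F test, adjusted p = 0.00551), where 5.69% of all genes were called. At day 2 the rise was already there. CD163 had 119 and 86.6 CPM with 552A in OCIAML3, against 0.320 and 0.480 CPM with DMSO, and the log2 fold change was 7.96 ± 0.54 (adjusted p = 6.77e-05). In THP1 it was 4.07 ± 0.32 (adjusted p = 1.57e-05). In both lines replicate 2 with 552A at day 2 is among the libraries set apart. In MV411 CD163 had 22 and 42 counts with 552A and 0 with DMSO (adjusted p = 0.0141). The rise is at least 15.7-fold when the DMSO group is set at 3 counts, which covers counting error only. That call was lost without either 552A library or either DMSO library (adjusted p 0.067 to 0.155).

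**Figure D2:**
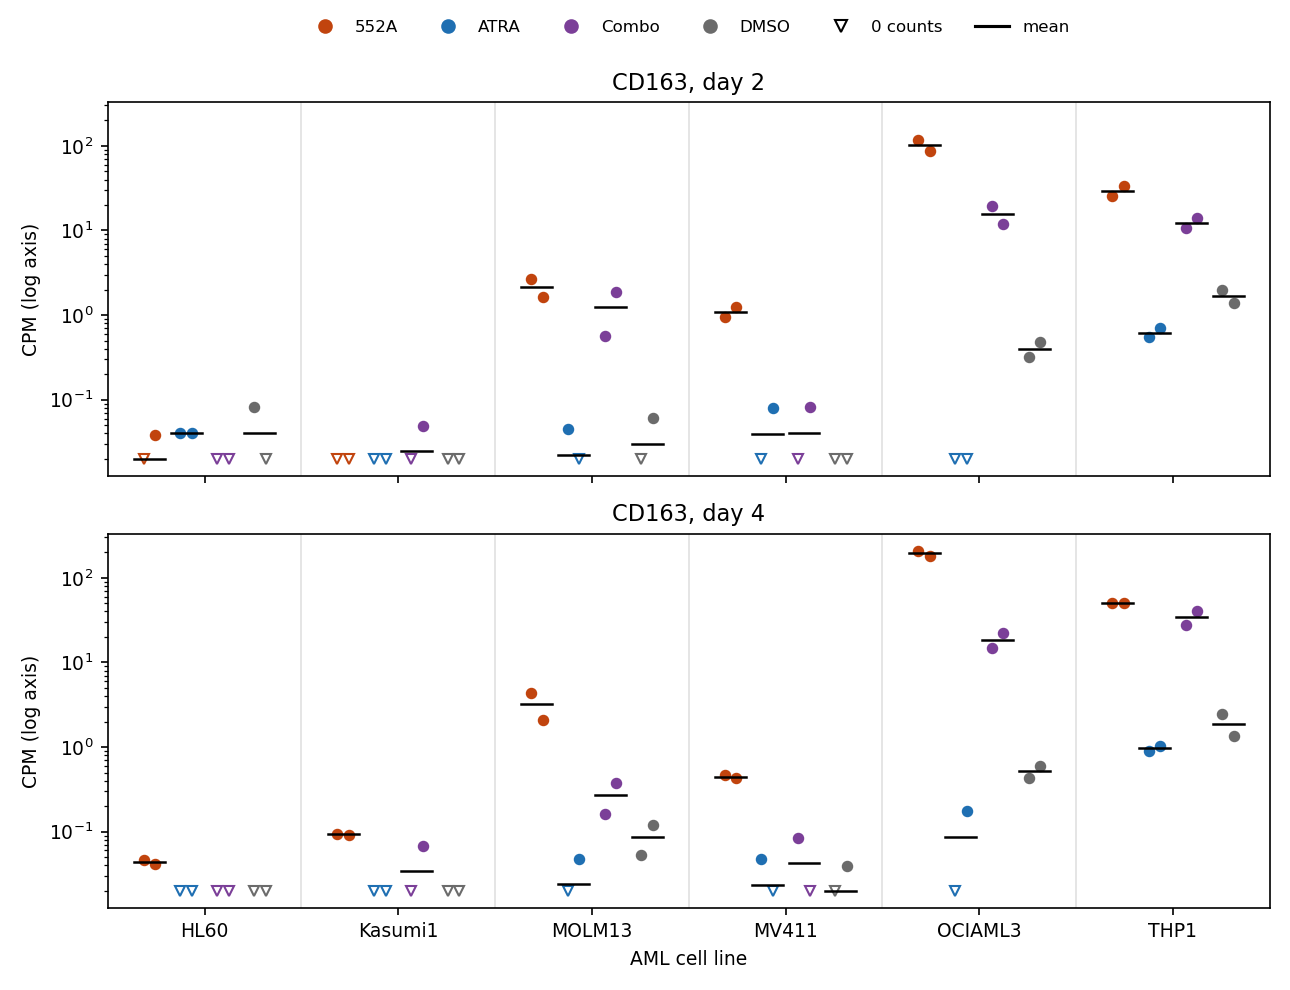
CD163 in CPM (log axis) in each library of the 6 AML lines at day 2 (top) and day 4 (bottom), coloured by treatment; bars are means of 2 libraries and open triangles mark libraries with 0 counts. With 552A the OCIAML3 libraries reach 208 and 181 CPM at day 4, the Combo libraries lie below them, and the ATRA libraries lie at or under the DMSO level in OCIAML3 and THP1.

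At day 4 the combination gave less CD163 than 552A alone. In OCIAML3 at day 4 the Combo libraries had 14.7 and 22.2 CPM, against 208 and 181 CPM with 552A, a log2 fold change of -3.46 ± 0.42 (adjusted p = 0.00068). In MOLM13 Combo had 0.163 and 0.381 CPM, against 4.36 and 2.08 CPM with 552A (log2 -3.52 ± 0.73, adjusted p = 0.0077), a call lost without Combo replicate 1 (adjusted p = 0.118). The MOLM13 library with 4.36 CPM is among those set apart. In THP1 Combo had 27.7 and 40.4 CPM, against 50.4 and 50.7 CPM with 552A. This difference did not pass (log2 -0.58 ± 0.27, adjusted p = 0.143). Across lines CD163 was lower with Combo than with 552A in 6 of 6 lines (log2 -2.65 ± 0.54, adjusted p = 0.00997). It was the 1 member called, where 7.44% of all genes were called. The call was lost when the fit held only these 2 treatments (adjusted p = 0.0688). In HL60 the direction rests on 0 and 0 counts with Combo against 1 and 1 with 552A. In Kasumi1 it rests on 0 and 1 counts against 2 and 2, and both lines were under the level filter. At day 2 the across-line value was -2.02 ± 0.74 (adjusted p = 0.122), where 3.04% of all genes were called, with 0 members called by edgeR, 3 at an unadjusted p under 0.05 and 0 called by DESeq2.

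Combo was still above DMSO and above ATRA for CD163. Across lines it was 15.1-fold above DMSO at day 4 (log2 3.91 ± 0.71, adjusted p = 0.00116, higher in 5 of 6 lines) and 37.9-fold above ATRA (log2 5.24 ± 0.77, adjusted p = 0.00713), where 0.273% of all genes were called between Combo and ATRA. The value against ATRA did not pass without MOLM13 (adjusted p = 0.0767). The 5 lines above DMSO include Kasumi1, with 0 and 1 counts with Combo against 0 and 0 with DMSO. They also include MV411, with 2 and 0 counts against 0 and 1. Within lines at day 4 Combo passed against DMSO in OCIAML3 (log2 5.14 ± 0.50, adjusted p = 8.04e-05) and THP1 (4.08 ± 0.31, adjusted p = 1.29e-06).

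With ATRA alone CD163 was low in OCIAML3 and THP1. In THP1 at day 2 it had 0.545 and 0.697 CPM with ATRA, against 2.00 and 1.37 CPM with DMSO (log2 -1.53 ± 0.35, adjusted p = 0.0128). This call was lost without either ATRA library or DMSO replicate 1 (adjusted p 0.0506 to 0.131). In OCIAML3 at day 2 it had 0 counts in both ATRA libraries, against 9 and 21 counts with DMSO, at least 5.14-fold lower with the ATRA group set at 3 counts (adjusted p = 0.017), and without ATRA replicate 1, ATRA replicate 2 or DMSO replicate 2 the adjusted p was 0.0643 to 0.144. At day 4 neither line passed (adjusted p = 0.0512 in THP1 and 0.0596 in OCIAML3). Across lines at day 4 the log2 value was -1.33 ± 0.76 (adjusted p = 0.293).

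The summed level of monocyte and macrophage markers was higher in the 552A libraries too, but did not follow CD163 under every treatment. A list of 10 such markers, which holds the member CD68, summed to 12135 to 12825 CPM with 552A, 1684 to 1720 CPM with ATRA and 9402 to 10639 CPM with Combo in THP1 at day 4, against 695 to 737 CPM with DMSO. The marker sum with ATRA in THP1 was above that with DMSO, while both ATRA libraries lay below both DMSO libraries for CD163. In OCIAML3 the sum was 2703 to 4166 CPM with 552A, 2551 to 3066 CPM with Combo, 187 to 195 CPM with ATRA and 125 to 204 CPM with DMSO. In HL60 it was 228 to 231 CPM with 552A and 525 to 766 CPM with ATRA, against 23.2 to 24.2 CPM with DMSO, with CD14, C1QA and SIGLEC1 among the markers at 0 counts with 552A and CD163 at 0 counts in both ATRA libraries. In MV411 it was 1312 to 1471 CPM with 552A, 268 to 304 CPM with ATRA and 230 to 256 CPM with Combo, against 406 to 462 CPM with DMSO. A few abundant genes can carry such a sum. Markers with a mean of at least 1 CPM with 552A and with DMSO were 10 and 9 in THP1 and 8 and 8 in OCIAML3. They were 5 and 5 in MV411, 8 and 7 in MOLM13, 4 and 4 in Kasumi1 and 4 and 3 in HL60. In HL60 4 markers were at 0 counts with 552A and 1 with DMSO. A list of 10 immature myeloid markers summed in THP1 to 1414 to 1678 CPM with 552A, 976 to 1201 CPM with ATRA and 511 to 681 CPM with Combo, against 3305 to 3479 CPM with DMSO. The part of these markers in the CD163 result was not tested. In bulk RNA a larger share of cells that express a gene and more RNA per cell cannot be told apart. Over the 36 differences from DMSO (6 lines, 3 treatments, 2 days), the genes with the responses most like that of CD163 were ACAD8 (r = 0.866), ARHGEF28 (r = 0.851) and LRP2BP (r = 0.848). These points share DMSO libraries and lines.

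MSR1, the class A receptor for modified LDL, rose with the combination in the lines MOLM13 and THP1. It had 5.05 and 4.06 CPM with Combo in MOLM13 at day 4, against 0.481 and 0.417 CPM with DMSO (log2 3.30 ± 0.47, adjusted p = 0.000316). THP1 had 7.96 and 12.9 CPM with Combo, against 1.91 and 1.86 CPM with DMSO (log2 2.39 ± 0.31, adjusted p = 7.46e-05). In MV411 the Combo libraries at 1.49 and 2.19 CPM overlapped the DMSO libraries at 1.70 and 2.20 CPM. With 552A in THP1 MSR1 had 1.99 and 2.38 CPM, a log2 change of 0.15 ± 0.31 from DMSO (adjusted p = 0.919). In MOLM13 it had 1.90 and 1.45 CPM with 552A, both above the DMSO libraries, and this difference did not pass (log2 1.81 ± 0.48, adjusted p = 0.0977).

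Combo exceeded the sum of the single-agent effects for MSR1 in THP1, by 2.89 ± 0.44 on the log2 scale at day 4 (adjusted p = 0.00411). No other member and line passed that contrast at day 4, in 35 member and line pairs tested, where 0.959% of all genes over the fits of the 6 lines were called. At day 2 MSR1 in THP1 was again the 1 pair called (2.35 ± 0.48, adjusted p = 0.0447, where 0.267% of all genes were called), a call lost on leaving out any of 13 of the 16 libraries of the line in turn (adjusted p up to 0.179). Across lines the contrast gave 2.15 ± 0.72 at day 4 (adjusted p = 1), and 0 of 8 members were called at either day. That is 0% of all genes too. At an unadjusted p under 0.05 there were 2 members at day 4 and 1 at day 2, while DESeq2 called 0 at both days.

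Across lines MSR1 was 3.28-fold higher with Combo than with DMSO at day 4 (log2 1.71 ± 0.53, adjusted p = 0.0328). The group means were higher in 2 lines, lower in 2 and at 0 counts in both groups in HL60 and Kasumi1. The adjusted p was 0.205 without MOLM13, 0.229 without THP1, 0.0515 without the 5 libraries set apart, 0.0512 without replicate 2 and 0.185 when the fit held Combo and DMSO alone. With ATRA, MSR1 fell in MV411 at day 4 to 0.759 and 0.586 CPM, against 1.70 and 2.20 CPM with DMSO (log2 -1.49 ± 0.46, adjusted p = 0.0294). Without any of the ATRA or DMSO libraries of that day it did not pass (adjusted p 0.0543 to 0.19). The closest responses to that of MSR1 were those of FLNC (r = 0.879), RASD2 (r = 0.755) and ACP5 (r = 0.699).

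MARCO, the other class A receptor, moved in opposite directions in different lines. With ATRA at day 4 it had 8.65 and 5.12 CPM in OCIAML3, against 1.27 and 1.49 CPM with DMSO (log2 2.37 ± 0.51, adjusted p = 0.0091). In THP1 it had 0.316 and 0.304 CPM with ATRA, against 3.01 and 2.67 CPM with DMSO (log2 -3.26 ± 0.55, adjusted p = 0.00177). In MV411 it had 0 and 1 counts with ATRA, against 15 and 9 counts with DMSO (log2 -4.17 ± 1.25, adjusted p = 0.0286). The test of a difference between lines gave an adjusted p of 0.000153 for ATRA, where 31.4% of all genes were called, and 0.00173 for Combo, where 33.6% were called. The OCIAML3 call was lost without ATRA replicate 1 (adjusted p = 0.0717), DMSO replicate 1 (0.0886) or DMSO replicate 2 (0.0634). The MV411 call was lost without either ATRA library or DMSO replicate 1 (adjusted p 0.0984 to 0.163).

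With the combination, too, MARCO was higher in OCIAML3 and lower in THP1 and MV411. It had 6.19 and 3.79 CPM with Combo in OCIAML3, against 1.27 and 1.49 CPM with DMSO (log2 1.85 ± 0.51, adjusted p = 0.0297), lost without Combo replicate 1, DMSO replicate 1 or DMSO replicate 2 (adjusted p 0.122 to 0.176). THP1 had 1.07 and 0.244 CPM with Combo, against 3.01 and 2.67 CPM with DMSO (log2 -2.07 ± 0.50, adjusted p = 0.00699). In MV411 both Combo libraries had 0 counts, at least 6.41-fold under DMSO with the Combo group set at 3 counts (adjusted p = 0.0178). The MV411 call did not pass without either Combo library or DMSO replicate 1 (adjusted p 0.0604 to 0.0844). With 552A at day 4 no line passed for MARCO, the nearest being THP1 with 4.74 and 5.16 CPM, against 3.01 and 2.67 CPM with DMSO (log2 0.73 ± 0.43, adjusted p = 0.45). PAQR8 (r = 0.877), EMBP1 (r = 0.782) and FGFR3 (r = 0.778) had the most similar responses.

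STAB1, the clearance receptor stabilin-1, rose with 552A and more so with the combination in THP1. In Kasumi1 at day 4 it had 16.4 and 18.2 CPM with 552A, against 1.5 and 2.03 CPM with DMSO (log2 3.27 ± 0.52, adjusted p = 0.00243). In MV411 it had 2.23 and 5.18 CPM with 552A, against 0.539 and 0.315 CPM with DMSO (log2 3.12 ± 0.61, adjusted p = 0.01). In THP1 it had 2.97 and 1.62 CPM with 552A, against 0.201 and 0.348 CPM with DMSO (log2 2.99 ± 0.72, adjusted p = 0.0269). The MV411 call was lost without 552A replicate 2 (adjusted p = 0.0995) or DMSO replicate 2 (0.0918), and the THP1 call without 552A replicate 1 (0.17), DMSO replicate 1 (0.231) or DMSO replicate 2 (0.129). The 552A group mean was higher in 6 of 6 lines, but the change across lines did not pass in edgeR (log2 2.78 ± 0.71, adjusted p = 0.108). DESeq2 called it (adjusted p = 0.00887). In all 6 lines both 552A libraries lay above both DMSO libraries.

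With Combo STAB1 had 31.8 and 11.3 CPM in THP1 at day 4, against 0.201 and 0.348 CPM with DMSO (log2 6.23 ± 0.71, adjusted p = 2.94e-05). Against 552A alone in THP1 the log2 difference was 3.23 ± 0.55 (adjusted p = 0.001). In MV411 the difference ran the other way, with 1.24 and 0.188 CPM for Combo, against 2.23 and 5.18 CPM for 552A (log2 -2.25 ± 0.57, adjusted p = 0.0191), a call lost without Combo replicate 2, which is among the libraries set apart, or 552A replicate 2 (adjusted p up to 0.206). In HL60 STAB1 had 0.730 and 1.52 CPM with Combo, against 0.0731 and 0.0895 CPM with DMSO (log2 3.62 ± 0.91, adjusted p = 0.0095), lost without Combo replicate 2 or either DMSO library (adjusted p 0.0656 to 0.089). In Kasumi1 Combo gave 3.55 and 11.6 CPM, against 1.5 and 2.03 CPM with DMSO (log2 2.07 ± 0.52, adjusted p = 0.0239). The first of these Combo libraries is among those set apart. Without Combo replicate 2 the Kasumi1 value was 0.90 (adjusted p = 0.093), and without a DMSO library the adjusted p was 0.187 or 0.0991. Across lines STAB1 was 4.97-fold higher with Combo than with DMSO (log2 2.31 ± 0.74, adjusted p = 0.0303, higher in 6 of 6 lines), a call lost without HL60 (adjusted p = 0.0927) or Kasumi1 (0.0511), or when the fit held Combo and DMSO alone (0.114).

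ATRA gave STAB1 no common direction. THP1 had 3.38 and 2.09 CPM with ATRA, against 0.201 and 0.348 CPM with DMSO (log2 3.23 ± 0.72, adjusted p = 0.00992), lost without DMSO replicate 1 (0.1) or DMSO replicate 2 (0.051). In Kasumi1 it had 0.350 and 0.288 CPM with ATRA, against 1.5 and 2.03 CPM with DMSO, under both vehicle libraries but not past the test (log2 -2.43 ± 0.68, adjusted p = 0.731, where 0.106% of all genes in that line were called). The responses differed between lines for ATRA (adjusted p = 0.00107) and Combo (adjusted p = 0.000431), where 31.4% and 33.6% of all genes were called. STAB1 is also a gene of some endothelial cells. A list of 10 endothelial markers summed in THP1 at day 4 to 646 to 656 CPM with 552A, against 268 to 278 CPM with DMSO. With ATRA it summed to 306 to 385 CPM and with Combo to 642 to 770 CPM. In THP1 3 of the 10 markers had a mean of at least 1 CPM with 552A and 4 with Combo. In Kasumi1 the sum was 14.8 to 16.2 CPM with 552A, against 13.3 to 17.4 CPM with DMSO. In MV411 it was 161 to 185 CPM with 552A, against 211 to 214 CPM with DMSO. The part of these markers in the STAB1 result was not tested. The responses most like that of STAB1 were those of ANGPTL2 (r = 0.872), LRP1 (r = 0.855), another endocytic receptor, and ZNF703 (r = 0.851).

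MRC1, the mannose receptor, was at measurable levels mainly in Kasumi1, where 552A raised it. It had 12.6 and 13.8 CPM with 552A at day 4 and 16.9 and 16 CPM with Combo, against 1.06 and 0.941 CPM with DMSO. The log2 change was 3.69 ± 0.33 with 552A (adjusted p = 3.53e-05) and 3.98 ± 0.33 with Combo (adjusted p = 1.53e-05). ATRA libraries had 0.583 and 0.576 CPM, under both DMSO libraries, without passing (log2 -0.77 ± 0.39, adjusted p = 1). Combo and 552A differed by 0.29 ± 0.28 on the log2 scale in Kasumi1 (adjusted p = 0.974). At day 2 the gene had 9.35 and 4.92 CPM with 552A, against 0.998 and 0.598 CPM with DMSO (log2 3.09 ± 0.33, adjusted p = 0.000217).

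In THP1 MRC1 had 1.11 and 1.22 CPM with Combo at day 4, against 0.225 and 0 CPM with ATRA (log2 3.41 ± 1.00, adjusted p = 0.043). That call was lost on leaving out any of 11 libraries in turn (adjusted p up to 0.25). The other 4 lines held 5 to 35 counts in 16 libraries each and were under the filter. Across lines MRC1 passed with Combo at day 2 (log2 2.17 ± 0.68, adjusted p = 0.0264), higher in 4 of 6 lines. It did not pass at day 4 (log2 1.00 ± 0.92, adjusted p = 0.454). Kasumi1 held 1936 of the 2093 MRC1 counts. Without that line 1 member was called with Combo at day 2, and it was not MRC1. The day 2 value did not pass without OCIAML3 (adjusted p = 0.0596), THP1 (0.0620) or replicate 1 (0.164), with Combo and DMSO alone (0.0623) or in DESeq2 (0.103). TMEM236 (r = 0.962), HOPX (r = 0.945) and C5orf17 (r = 0.943) had the most similar responses, over points in which MRC1 was near 0 outside Kasumi1 and THP1.

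**Figure D3:**
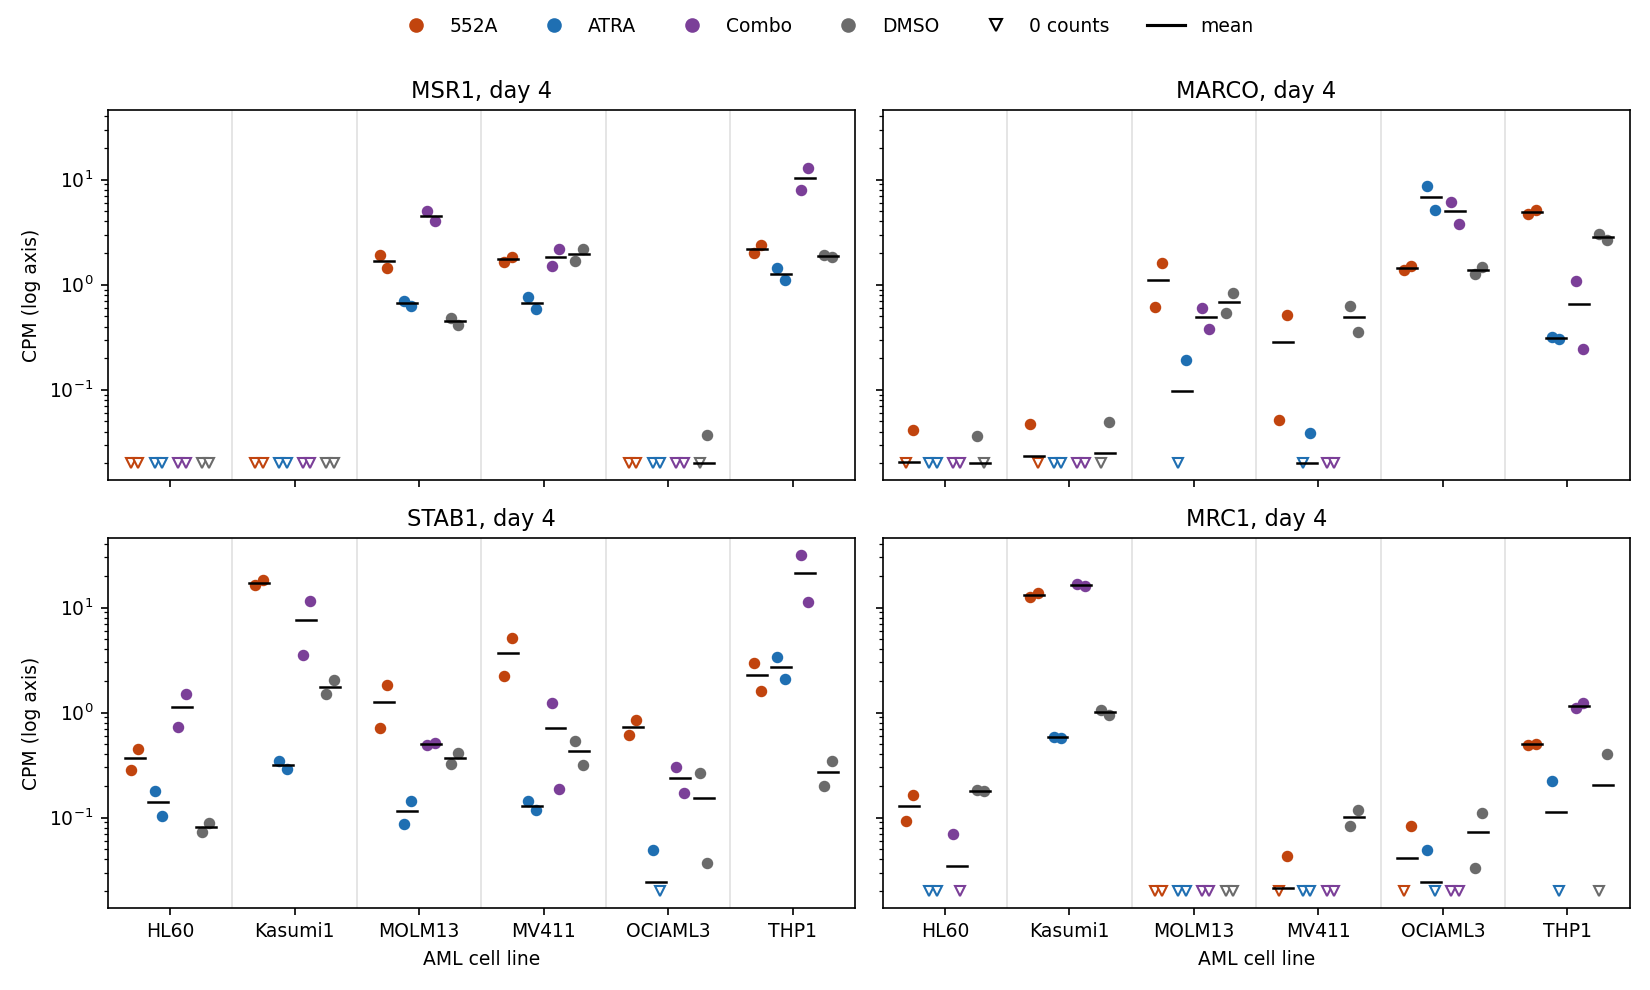
MSR1, MARCO, STAB1 and MRC1 in CPM (log axis) in each library of the 6 AML lines at day 4, coloured by treatment; bars are means of 2 libraries and open triangles mark 0 counts. MSR1 and STAB1 reach their highest level with Combo in THP1 (up to 12.9 and 31.8 CPM), MRC1 is high with 552A and Combo in Kasumi1, and MARCO is low with ATRA in THP1 and MV411 but high in OCIAML3.

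CD36, the fatty acid and oxidised LDL receptor, rose with ATRA in THP1, OCIAML3 and MOLM13 at day 4. In THP1 at day 4 it had 180 and 220 CPM with 552A, 793 and 1045 CPM with ATRA and 1421 and 1911 CPM with Combo, against 41.3 and 51.0 CPM with DMSO. The log2 changes were 2.05 ± 0.24 with 552A (adjusted p = 0.000294), 4.22 ± 0.27 with ATRA (adjusted p = 1.04e-06) and 5.10 ± 0.28 with Combo (adjusted p = 1.01e-07). No libraries of different treatments overlapped there. Combo was above ATRA by 0.87 ± 0.24 (adjusted p = 0.026), a call lost without any of 7 libraries in turn (adjusted p up to 0.212). Combo fell short of the sum of the single effects by 1.17 ± 0.33 on the log2 scale, which did not pass (adjusted p = 0.116).

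In OCIAML3 552A and ATRA moved CD36 in opposite directions. It had 67.7 and 83.7 CPM with 552A, 641 and 697 CPM with ATRA and 499 and 581 CPM with Combo, against 163 and 260 CPM with DMSO. The log2 changes were -1.44 ± 0.34 with 552A (adjusted p = 0.0441), 1.71 ± 0.34 with ATRA (adjusted p = 0.00564) and 1.34 ± 0.33 with Combo (adjusted p = 0.0191). The 552A call was lost without any of 14 of the 16 libraries in turn (adjusted p 0.0546 to 0.418), the ATRA call without DMSO replicate 1 (0.0691) and the Combo call without DMSO replicate 1 (0.165) or a Combo library (0.0637 and 0.0913). At day 2 552A gave 80.1 and 198 CPM, against 137 and 176 CPM with DMSO, which overlapped, and the second of these 552A libraries is among those set apart.

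CD36 rose in MOLM13 and fell in MV411. In MOLM13 at day 4 it had 10.0 and 7.47 CPM with ATRA and 9.77 and 11.7 CPM with Combo, against 2.57 and 2.74 CPM with DMSO. The log2 changes were 1.65 ± 0.35 with ATRA (adjusted p = 0.00994) and 1.99 ± 0.35 with Combo (adjusted p = 0.00161), and the ATRA call was lost without ATRA replicate 1 or a DMSO library (adjusted p 0.0898 to 0.109). In MV411 it had 5.92 and 4.62 CPM with 552A, 12.1 and 15.9 CPM with ATRA and 2.13 and 5.88 CPM with Combo, against 16.8 and 21.0 CPM with DMSO. There the changes were -1.84 ± 0.42 with 552A (adjusted p = 0.0245) and -2.22 ± 0.43 with Combo (adjusted p = 0.00205), and with ATRA the value was -0.39 ± 0.40 (adjusted p = 0.504). The 552A call was lost without any of the 552A and DMSO libraries of day 4 (adjusted p 0.0533 to 0.2).

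**Figure D4:**
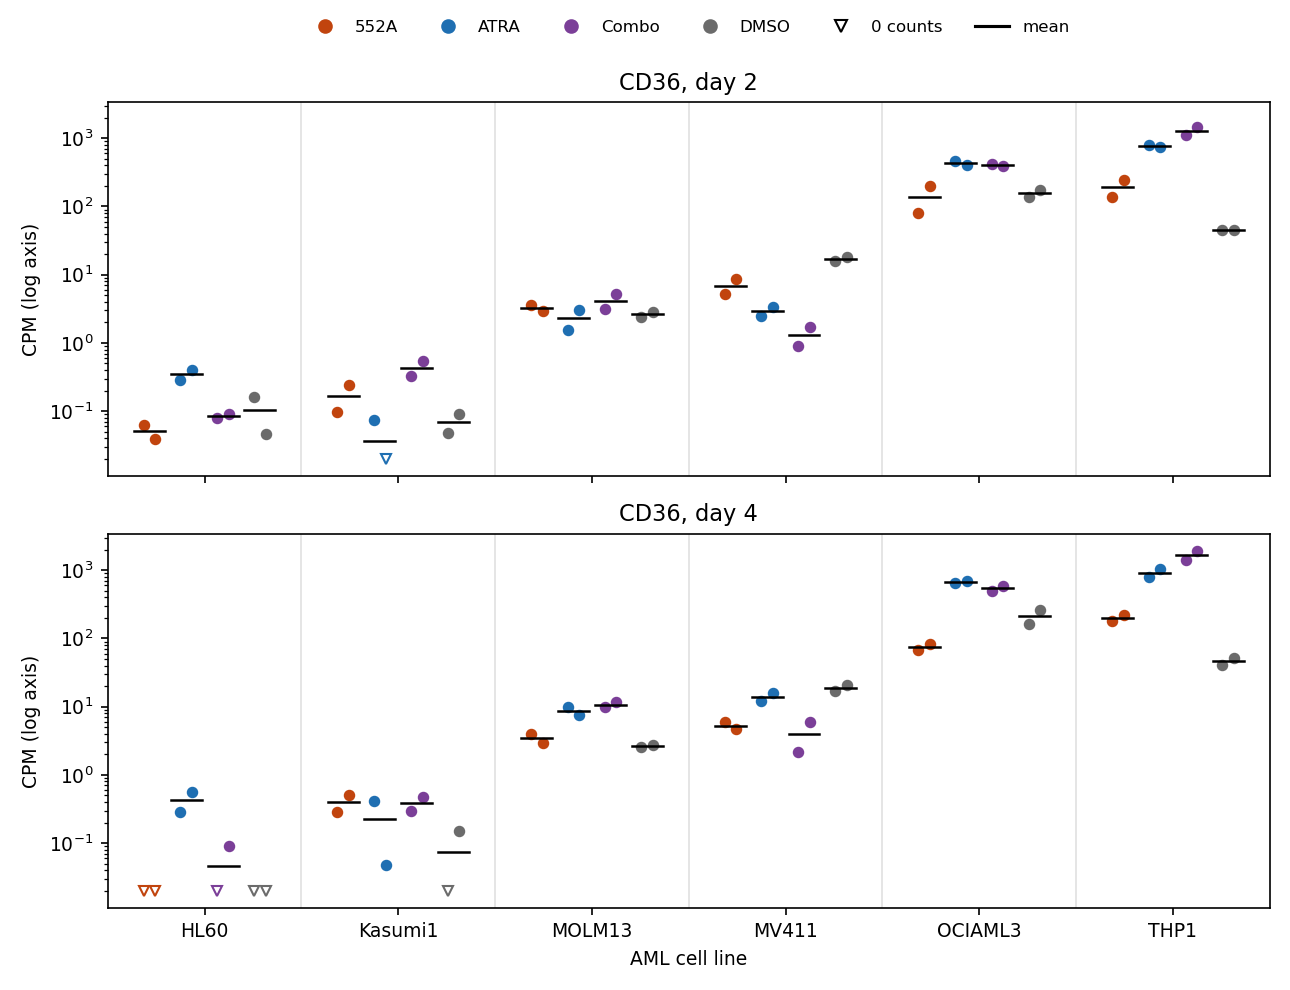
CD36 in CPM (log axis) in each library of the 6 AML lines at day 2 (top) and day 4 (bottom), coloured by treatment; bars are means of 2 libraries and open triangles mark 0 counts. At day 4 THP1 steps up through 552A, ATRA and Combo to 1911 CPM, OCIAML3 is lower with 552A and higher with ATRA than with DMSO, and MV411 is lower with 552A and Combo.

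The CD36 response differed between lines for each treatment (adjusted p 4.33e-05 for 552A, where 5.69% of all genes were called, 2.99e-06 for ATRA and 3.59e-09 for Combo), and no across-line value passed (at day 4 log2 -0.38 ± 0.71 for 552A, 1.54 ± 0.69 for ATRA and 1.44 ± 0.71 for Combo). In the test between lines, 31.4% of all genes were called for ATRA and 33.6% for Combo. CD36 is also made by megakaryocytes and erythroid cells. A list of 12 markers of those cells summed to 6.43 to 23.7 CPM over all lines and treatments at day 4, and in THP1 to 10.1 to 10.4 CPM with 552A, 8.13 to 10.6 CPM with ATRA, 7.26 to 10.9 CPM with Combo and 11.7 to 12.7 CPM with DMSO. RAB9A (r = 0.879), LIPA (r = 0.857), the lysosomal acid lipase that frees cholesterol from lipoproteins, and ZNF385D-AS1 (r = 0.853) had the responses most like that of CD36.

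SCARB1, the high-density lipoprotein receptor, was lower with the combination. In HL60 at day 4 it had 53.1 and 36.8 CPM with Combo, against 95.2 and 90.6 CPM with DMSO (log2 -1.13 ± 0.30, adjusted p = 0.013), lost without Combo replicate 2 or either DMSO library (adjusted p 0.0607 to 0.134). In Kasumi1 it had 27.6 and 52.8 CPM with Combo, against 75.7 and 85.0 CPM with DMSO (log2 -1.03 ± 0.31, adjusted p = 0.0568). The first of these Combo libraries is among those set apart. In THP1 SCARB1 had 163 and 98.8 CPM with Combo, against 156 and 163 CPM with DMSO, which overlapped. Across lines it was lower in 6 of 6 lines (log2 -0.66 ± 0.16, adjusted p = 0.00664 at day 4 and -0.52 ± 0.18, adjusted p = 0.0343 at day 2). The day 4 call was lost when the fit held Combo and DMSO alone (adjusted p = 0.0525), and the day 2 call without Kasumi1 (0.0558), MOLM13 (0.0647), MV411 (0.112), OCIAML3 (0.0878) or replicate 1 (0.341), or with the 2 treatments alone (0.0551).

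Some low SCARB1 values came from libraries with a steep GC trend, and whether the trend lowered them was not tested. In MV411 at day 4 it had 33.9 and 19.7 CPM with Combo, against 77.0 and 38.7 CPM with DMSO, and the lower value of each group is from a library with a steep GC trend. Its change there passed (log2 -1.07 ± 0.36, adjusted p = 0.0438) but was -0.72 without Combo replicate 2 (adjusted p = 0.271) and -0.35 without DMSO replicate 1 (adjusted p = 0.548). In OCIAML3 at day 2 552A gave 87.3 CPM in replicate 1 and 26.9 CPM in replicate 2, against 90.3 and 72.2 CPM with DMSO. With 552A or ATRA alone SCARB1 passed in no line at day 4, and at day 2 it was lower with ATRA in HL60, at 37.7 and 27.4 CPM against 96.5 and 86.1 CPM with DMSO (log2 -1.49 ± 0.30, adjusted p = 0.00305). CLUH (r = 0.839), ACY1 (r = 0.832) and ISOC2 (r = 0.822) responded most like it.

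CD68, the lysosomal macrosialin, had few counts in this table. Other annotated genes cover 85.8% of its exon bases and 81.7% on the same strand, where AC016876.2 alone takes 20319 counts, and the CD68 row held 2285 counts over 96 libraries, at most 3.84 CPM. How reads shared with that gene were counted was not tested. In its row CD68 rose with ATRA in MV411 at day 4 to 2.18 and 2.03 CPM, against 0.414 and 0.512 CPM with DMSO (log2 2.22 ± 0.42, adjusted p = 0.00199). THP1 had 3.11 and 2.70 CPM with ATRA and 3.18 and 3.36 CPM with Combo, against 0.953 and 0.928 CPM with DMSO (log2 1.54 ± 0.31, adjusted p = 0.00543, and 1.72 ± 0.31, adjusted p = 0.00102). A list of 10 dendritic cell markers summed in MV411 at day 4 to 22.0 to 26.2 CPM with 552A, 1751 to 1898 CPM with ATRA and 564 to 968 CPM with Combo, against 5.39 to 7.08 CPM with DMSO, with CLEC9A, FCER1A and LAMP3 at 0 counts with ATRA. Its part in the CD68 result was not tested. With 552A no line passed for CD68 at day 4, with log2 values of -0.42 to 0.65. MMP19 (r = 0.839), REC8 (r = 0.806) and GABRE (r = 0.805) responded most like CD68.

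**Figure D5:**
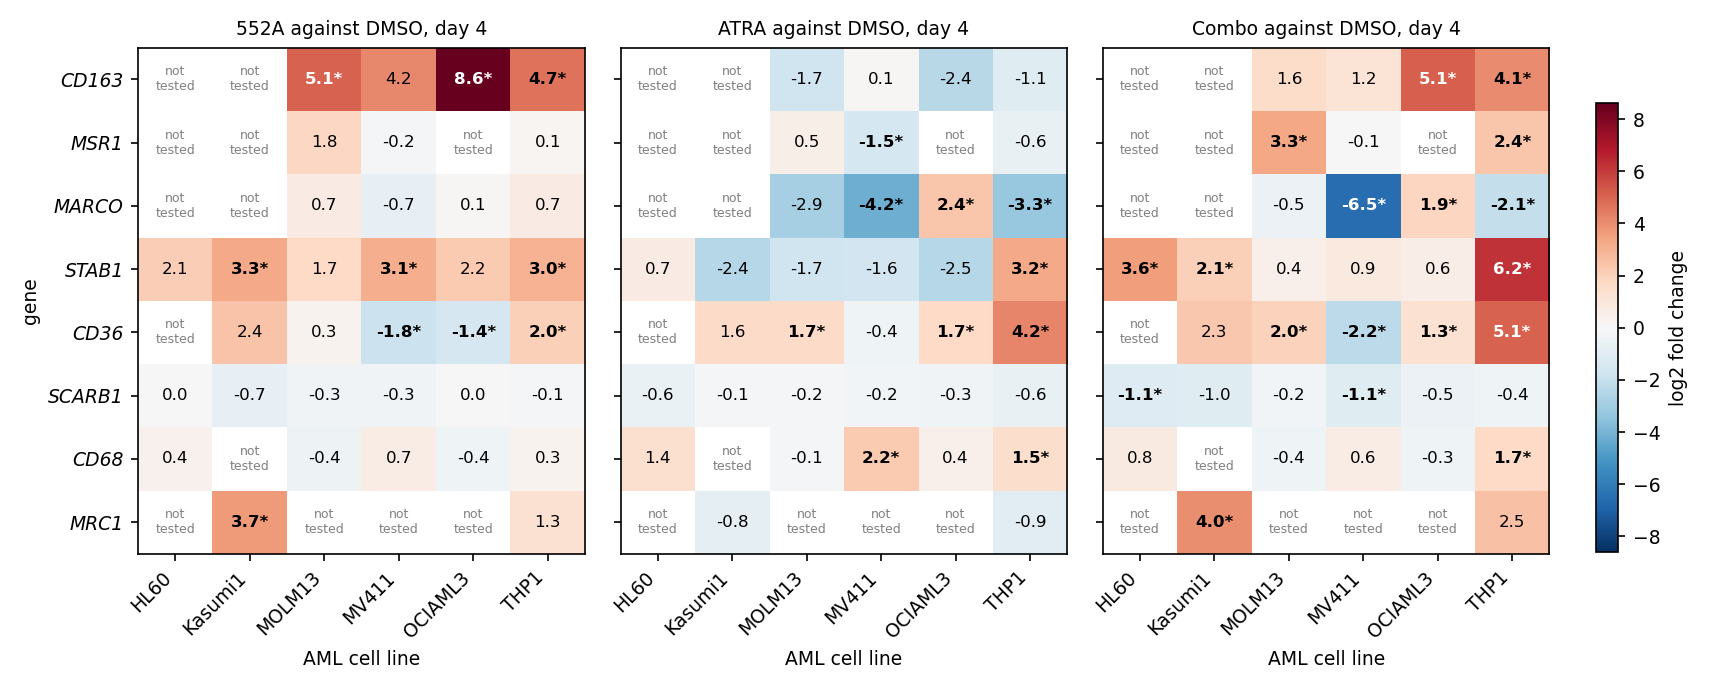
Log2 fold change of each receptor gene in each AML line at day 4 for 552A, ATRA and Combo against DMSO, from edgeR fits of the 16 libraries of a line; an asterisk marks an adjusted p under 0.05 and blank cells were under the level filter. CD163 is higher with 552A in 3 lines (up to 8.59), while CD36 and MARCO carry called changes of both signs with ATRA or Combo.

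Counted over the 48 pairs of member and line, 35 pairs were tested. With 552A at day 4, 8 pairs were called higher and 2 lower, 28.6% of those tested, where 3.71% of all genes over the fits of the 6 lines were called. With ATRA 7 were higher and 3 lower, the same 28.6%, against 15.7% of all genes, and with Combo 13 were higher and 5 lower (51.4%), against 22.0% of all genes. Between Combo and ATRA 11 pairs were higher and 2 lower (37.1%, against 8.42% of all genes), and between Combo and 552A 7 were higher and 5 lower (34.3%, against 14.7%). At day 2 these counts were 10 and 0 (all genes 5.15%) and 4 and 7 (all genes 12.9%). At day 2 the counts were 8 higher and 0 lower with 552A (all genes 2.80%), 3 higher and 7 lower with ATRA (all genes 11.3%) and 11 higher and 4 lower with Combo (all genes 18.7%). The comparisons with DMSO share those libraries, and pairs of 1 line share all of theirs. The members were chosen with earlier results of these data known, so these shares do not measure an enrichment.

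Across lines with Combo at day 4, CD163, MSR1 and STAB1 were called higher and SCARB1 lower, 4 of 8 members, where 23.3% of all genes were called. At day 2 CD163, STAB1 and MRC1 were called higher and SCARB1 lower (all genes 27.2%). The day 2 call of CD163 was lost in DESeq2 (adjusted p = 0.0533), and that of STAB1 without HL60 (0.0738), Kasumi1 (0.0549) or replicate 1 (0.0872), or with the 2 treatments alone (0.0963). With ATRA 0 members were called in edgeR at either day (all genes 7.15% at day 4 and 9.37% at day 2), with 3 members at day 4 and 2 at day 2 at an unadjusted p under 0.05, and DESeq2 called 2 at day 4 and 1 at day 2. At day 2 CD163 was called with 552A (log2 5.71 ± 0.99, adjusted p = 0.00526, all genes 1.96%), and CD163 (4.97 ± 1.08, adjusted p = 0.0296) and STAB1 (3.24 ± 0.75, adjusted p = 0.0438) were called between Combo and ATRA (all genes 0.895%). Both calls between Combo and ATRA were lost on leaving out Kasumi1, MOLM13 or OCIAML3 (adjusted p 0.0805, 0.227 and 0.104 for CD163 and 0.188, 0.162 and 0.0939 for STAB1). CD163 was also lost without THP1 (0.126) or replicate 2 (0.0760) and in DESeq2 (0.333), and STAB1 without HL60 (0.0905), MV411 (0.134) or replicate 1 (0.177) and with the GC and length correction (0.0591). Responses at day 4 were not called different from those at day 2 for any member. For each treatment, 0 of all 25017 genes tested were called too. Since no gene passed, these contrasts cannot decide whether the members responded differently by day. In 32 comparisons of the days, which include DMSO alone, edgeR called 0 and 1 had an unadjusted p under 0.05, and DESeq2 was not run on them. That 1 was MRC1 with DMSO, which is not a response to treatment.

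The members did not move as a block. Over the 36 differences from DMSO the correlation between pairs of members ran from r = -0.519 (MARCO with CD68) to 0.517 (STAB1 with MRC1), with a median of 0.0949 over 28 pairs. The differences share DMSO libraries and lines, so these are descriptions.

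Other genes of the same functions were counted across lines at day 4, where 0.393% of all genes were called with 552A, 7.15% with ATRA and 23.3% with Combo. Of 24 other scavenger receptor genes tested across lines at day 4, 6 were higher with Combo and 0 lower (median log2 0.38, against 0.04 for all genes). With ATRA 1 was higher, and with 552A 0. Counted in either direction, these shares are near those of all genes. Of all genes, 12.7% were called higher with Combo and 4.17% with ATRA. The scavenger receptor genes called included MERTK, a receptor for dying cells, at 3.83 ± 0.70 with Combo (adjusted p = 0.00124) and 3.82 ± 0.70 with ATRA (adjusted p = 0.00562). COLEC12, a lectin of scavenger type, was at 3.77 ± 0.93 (adjusted p = 0.00785), and SCARB2, a lysosomal class B member, at 0.83 ± 0.23 (adjusted p = 0.0133) with Combo. Of 20 genes listed for haemoglobin and haem handling, which is what CD163 feeds, 4 were higher and 0 lower with Combo. With either agent alone 0 were higher or lower. Counted in either direction, the share with Combo is no more than the 23.3% of all genes, of which 12.7% were called higher. The 4 genes included the stress regulator NFE2L2 (0.57 ± 0.12, adjusted p = 0.00251) and the exporter ABCG2 (2.42 ± 0.64, adjusted p = 0.0142). CD74 (1.72 ± 0.44, adjusted p = 0.00944) was also on the list, although it goes with the HLA class II genes and not with haem handling.

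Of 25 genes of lipoprotein uptake and cholesterol efflux, 6 were higher and 5 lower with Combo, and 4 higher and 2 lower with ATRA, against 23.3% and 7.15% of all genes. CYP27A1, which hydroxylates cholesterol, was at 5.03 ± 0.87 with Combo (adjusted p = 0.000924) and 5.05 ± 0.85 with ATRA (adjusted p = 0.00359). SOAT1, which esterifies cholesterol, was at 1.98 ± 0.27 (adjusted p = 0.000281) and MYLIP, the ligase that marks the LDL receptor for degradation, at -0.93 ± 0.17 with Combo (adjusted p = 0.00138). With ATRA, APOC1 was at 2.42 ± 0.51 (adjusted p = 0.0117) and RXRA, the partner of the RARs, at -1.15 ± 0.22 (adjusted p = 0.0061).

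Of 27 macrophage genes, 8 were higher and 1 lower with Combo (median log2 1.45, against 0.04 for all genes), and 5 were higher and 0 lower with ATRA (median 1.22, against -0.01), where 23.3% and 7.15% of all genes were called. The transglutaminase TGM2 (5.07 ± 0.57 with Combo, adjusted p = 9.43e-05, and 6.37 ± 0.60 with ATRA, adjusted p = 2.45e-05), the lectin CD209 (3.96 ± 0.43, adjusted p = 0.000121, and 4.34 ± 0.44, adjusted p = 0.000107) and the complement chain C1QC (3.82 ± 0.48 with Combo, adjusted p = 0.000864) led. With 552A edgeR called 0 genes of the 4 lists across lines (0.393% of all genes), with 4 scavenger receptor, 4 haem, 3 lipoprotein and 4 macrophage genes at an unadjusted p under 0.05, and DESeq2 called 1 lipoprotein gene higher, 1 macrophage gene lower and 0 in the other lists. With ATRA DESeq2 called 1 haem gene higher, where edgeR called 0 with 3 at an unadjusted p under 0.05. Within THP1 at day 4, 552A had 12 of 28 macrophage genes called higher and 0 lower. Of 23 other scavenger receptor genes, 8 were higher and 0 lower there, against 4.73% of all genes higher. Every other line had fewer genes called higher. MV411 had 3 macrophage genes higher and 2 lower (of 22), and OCIAML3 had 2 higher and 1 lower (of 18). Kasumi1 had 2 higher and 2 lower (of 11), MOLM13 had 1 higher (of 19) and HL60 had 0 (of 16). Other scavenger receptor genes were higher for 3 of 16 in MV411 (1 lower), 3 of 13 in Kasumi1 and 1 of 17 in OCIAML3 (1 lower). None was called in MOLM13 or HL60.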

How the data were processed

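RNA of 6 cell lines was sequenced after TruSeq Stranded Total RNA preparation, per the labels' protocols. The deposited values are raw counts of reads per gene, and the authors used Trimmomatic 0.36, STAR 2.4.2a, HTSeq 0.6.0 and GRCh38, per the submitters' processing notes. The strand setting of the counting is not given in the sources used here. Rows were matched to GENCODE 29 (56994 of 60552), and the 3508 unmatched rows held 0.0417% of counts.

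Each line was fitted with edgeR 4.0.16 (R 4.3.3) by the quasi-likelihood test, with TMM scaling and filterByExpr at a minimum count of 10, on 16 libraries in 8 groups. Across lines, the 2 libraries of a group were summed and line was a block (24 sums per day). Differences between lines were F tests on 48 libraries. P-values were adjusted by Benjamini-Hochberg over all genes tested, and a gene was called at an adjusted p under 0.05. CPM are scaled by TMM, and SE is the log2 fold change divided by the square root of F. For likeness, log2 (CPM + 0.5) differences from DMSO were correlated, and the 3 genes with the highest r are named. From each other list, up to 3 called genes with the smallest adjusted p are named.

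The members and lists were chosen with earlier results of these data known. Alternatives were DESeq2 1.42.0, no filter, a GC and length correction, a replicate block, the 2 treatments alone, and leaving out libraries or lines. The steps were tested on simulated data. There the changed genes had higher mean counts than MSR1, MARCO, MRC1 and CD68, so that run does not cover genes so low. Intervals and bounds cover counting error only.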

Additional observations from a re-analysis of the deposited data

Results flagged for a closer look

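The responses below differed between lines at day 4 in a test of the difference itself. It was an F test over 48 libraries with adjustment over all genes. Its p-values measure the spread of the library pairs, which may be technical. A response cannot be estimated in lines with counts at or near 0. MSR1 had 0 counts in all libraries of HL60 and Kasumi1 and 3 counts in OCIAML3. MRC1 had 5 counts in MOLM13, 6 in MV411 and 9 in OCIAML3. For 552A the responses of CD163 (adjusted p = 0.00551) and CD36 (adjusted p = 4.33e-05) differed, where 5.69% of all genes were called. Among the 4 lines tested within line for CD163, its log2 value ran from 8.59 in OCIAML3 to 4.15 in MV411. CD36 was at 2.05 in THP1 and at -1.84 in MV411, both called, and at 2.44 in Kasumi1, which did not pass (adjusted p = 0.291).

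For ATRA the responses of MARCO (adjusted p = 0.000153), STAB1 (adjusted p = 0.00107), CD36 (adjusted p = 2.99e-06) and CD68 (adjusted p = 0.000393) differed. Of all genes, 31.4% were called in that test. MARCO was at 2.37 in OCIAML3 and at -3.26 in THP1, and STAB1 at 3.23 in THP1 and at -2.43 in Kasumi1.

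For Combo the responses of MSR1 (adjusted p = 0.000492), MARCO (adjusted p = 0.00173), STAB1 (adjusted p = 0.000431), CD36 (adjusted p = 3.59e-09), CD68 (adjusted p = 0.00409) and MRC1 (adjusted p = 0.000957) differed. Of all genes, 33.6% were called in that test. CD36 was at 5.10 in THP1 and at -2.22 in MV411.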

How the results depend on the processing

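No call of a member changed direction under any alternative run. In the pairs of member and line, the GC and length correction with the replicate block gave 13 calls for 552A at day 2 (reported 8) and 16 at day 4 (reported 10), 16 and 17 for ATRA (reported 10 and 10) and 19 for Combo against 552A at day 4 (reported 12), and the correction without the block gave 16 for ATRA at day 2 and 19 for Combo against 552A at day 4. Without the filter there were 16 calls between Combo and ATRA at day 2 (reported 10). Beyond the sum, at day 2 (reported 1) DESeq2 gave 4, no filter 5, the correction 2, the block 5, both 4 and leaving out the 5 libraries 0. At day 4 (reported 1) no filter gave 3, the correction 2, the block 2, both 4 and leaving out the 5 libraries 2.

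Across lines, out of 8 members, 552A at day 2 (reported 1) gave 2 with DESeq2, 4 with the replicate block, 2 without HL60, 2 without THP1 and 4 with the 2 treatments alone, and at day 4 (reported 1) 2 each with DESeq2, the block, without THP1 and with the 2 treatments alone. ATRA (reported 0) gave 1 with DESeq2, 2 with the block and 2 without Kasumi1 at day 2, and 2 with DESeq2, 2 with the block, 1 without MV411 and 1 without OCIAML3 at day 4. Combo against DMSO (reported 4) gave 2 with DESeq2, 1 without Kasumi1, 2 without OCIAML3 and 1 with the 2 treatments alone at day 2, and 1 with the 2 treatments alone at day 4. Combo against ATRA at day 2 (reported 2) gave 1 with DESeq2, 1 with the correction, 4 with the block, 0 without Kasumi1, MOLM13 or OCIAML3 and 1 without MV411 or THP1, and at day 4 (reported 1) 3 with DESeq2, 4 with the block, 0 without MOLM13, 2 without THP1 and 2 with the 2 treatments alone. Combo against 552A gave 3 with the block at day 2 (reported 0), and at day 4 (reported 1) 4 with the block, 2 without OCIAML3 and 0 with the 2 treatments alone. The block across lines used unsummed libraries, so it has more samples by construction. Where no other reason is given, the cause was not tested.

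Leaving out replicates within lines gave 6 to 9 calls at day 2 and 8 to 11 at day 4 for 552A, 7 to 12 and 8 to 12 for ATRA, 13 to 15 and 16 to 19 for Combo, 8 to 12 and 9 to 14 for Combo against ATRA, 7 to 12 and 10 to 14 for Combo against 552A, and 0 to 5 and 1 to 2 beyond the sum. Leaving out replicate 1 or 2 across lines gave 1 to 4 calls at day 2 and 3 to 4 at day 4 for Combo, 1 for 552A and for Combo against ATRA at both days, 0 at day 2 and 1 to 2 at day 4 for Combo against 552A, and 0 for ATRA and beyond the sum at both days. Whether the replicate numbers pair the libraries is not in the labels. The median correlation of same-numbered deviations per line was 0.058 to 0.42, and the lowest was -0.81. Per line 13 to 21 of 28 group pairs were over 0.1. These correlations cannot decide on pairing, since both signs occur within each line. The replicate block within lines moved no other count of calls by over 1.5 times. Depth limits CD163, MSR1, MARCO and MRC1 most, which had 0 counts in 35, 46, 29 and 45 of 96 libraries.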
